A study of Sus scrofa with 12 samples.

Results

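The genes described here are the receptors through which steroid hormones act on the endometrium, and the proteins that hold or tune those receptors. They are the estrogen receptors ESR1, ESR2 and GPER1, the progesterone receptor PGR with the membrane-associated components PGRMC1 and PGRMC2, the glucocorticoid receptor NR3C1, and the immunophilin co-chaperones FKBP4 and FKBP5. They were chosen by gene name, and the deposited table held all 9 of them among its 20674 genes. All 9 passed the filter on low counts and were among the 15351 genes tested.

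The endometrium came from Landrace × Yorkshire sows in their second parity or the one after, all fed an assigned diet from breeding over a gestation of 114 days. The control diet of L − N held 3.73% crude fiber, and L + N received this diet with 0.05% NCG (N-carbamylglutamate, an analog of N-acetylglutamate, the activator of the first step of the urea cycle and of endogenous arginine synthesis). H − N received a diet with 7.46% crude fiber, in which soybean bran and beet pulp replaced part of the corn, and H + N received that diet with 0.05% NCG. Each of the 4 groups had 3 libraries of poly(A) RNA, and nothing in the labels links a library of one group to a library of another.

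Steroid receptors of the nuclear family are transcription factors that wait in a complex with the chaperone HSP90 until a hormone binds, and then occupy DNA and change the transcription of their target genes. FKBP4 and FKBP5 compete for the same place on HSP90. FKBP4 favors hormone binding and nuclear transport, and female mice without it have a uterus that responds poorly to progesterone, while FKBP5 lowers the affinity of the receptor for hormone and is itself induced by glucocorticoids and progesterone, which closes a negative feedback loop. In the uterus, estrogen acting on ESR1 induces PGR, and progesterone acting on PGR restrains ESR1 and maintains pregnancy.

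Levels between genes were compared as FPKM (fragments per kilobase of transcript, scaled to the total of the library), and FKBP4 and PGRMC1 led the order. FKBP4 averaged 144 ± 89.7 FPKM (SD, n = 12 libraries) and PGRMC1 113 ± 20.6 FPKM. PGRMC2 followed at 51.5 ± 3.75 FPKM and ESR1, the main uterine estrogen receptor, at 46.8 ± 16.2 FPKM. FKBP5 had 21.1 ± 5.86 FPKM, NR3C1 12.6 ± 2.11 FPKM and PGR 9.95 ± 4.5 FPKM. The lowest levels were those of the membrane estrogen receptor GPER1, with 1.76 ± 0.472 FPKM, and of ESR2, the second nuclear estrogen receptor, with 0.456 ± 0.148 FPKM. Several neighbors in this order could not be separated. FKBP4 was above PGRMC1 in 7 of 12 libraries, PGRMC2 was above ESR1 in 7 of 12, and ESR1 was above FKBP5 in 10 of 12. NR3C1 was above PGR in 9 of 12 libraries. FKBP5 was above NR3C1 in each of the 12 libraries although their ranges overlapped, and the ranges did not overlap between PGRMC1 and PGRMC2, between PGR and GPER1, or between GPER1 and ESR2. By group means, ESR1 ranked 5 in L − N, 3 in L + N and H + N, and 4 in H − N. FKBP4 ranked 2 on both low-fiber diets and 1 on both high-fiber diets, in each case next to PGRMC1.

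**Figure D1:**
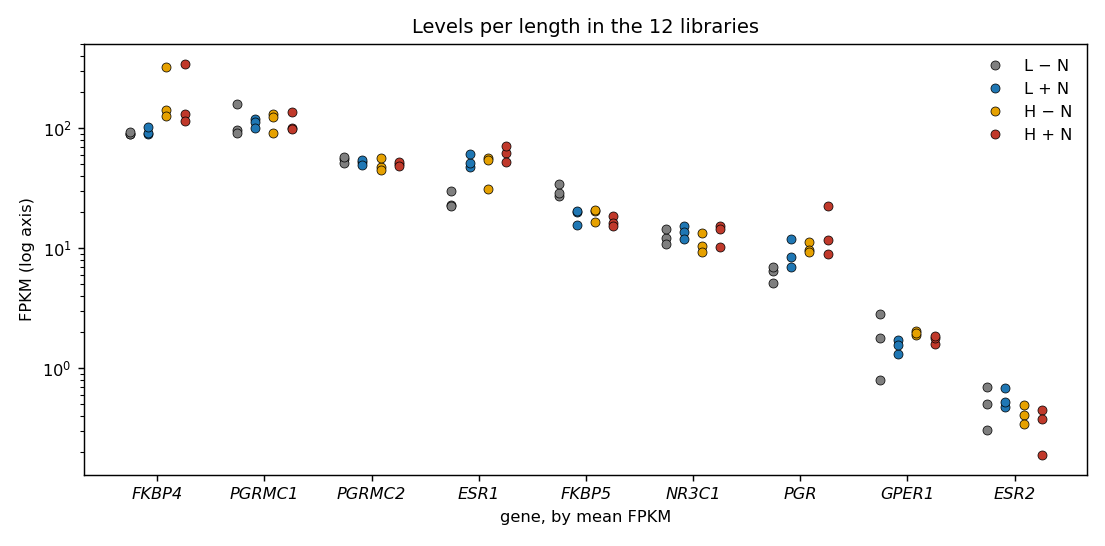
Level of each member in the 12 libraries as FPKM on a logarithmic axis, with genes ordered by their mean and points colored by group. FKBP4 reaches 343.9 FPKM in the library with its highest level, and ESR2 stays between 0.189 and 0.703 FPKM.

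The genes lie on 8 different chromosomes of the assembly Sscrofa11.1, with the estrogen receptors ESR1 (chromosome 1, 14217032 to 14604906, minus strand) and ESR2 (chromosome 1, 193823666 to 193907330, plus strand) far apart on the same one. PGR lies on chromosome 9 (32035684 to 32129776, minus strand), NR3C1 on chromosome 2 (144822937 to 144956451, minus strand), FKBP4 on chromosome 5 (67314010 to 67321628, minus strand) and FKBP5 on chromosome 7 (31441764 to 31550704, minus strand). PGRMC1 lies on chromosome X (97735402 to 97743424, plus strand), PGRMC2 on chromosome 8 (96692823 to 96710218, plus strand) and GPER1 on chromosome 3 (711427 to 715982, plus strand). GPER1 lies within C3H7orf50, a gene of the opposite strand with a mean of 13.3 CPM, over its whole length of 4556 bp. Whether the counting used the strand is not given in the sources used here, so the values of GPER1 are uncertain. NR3C1 overlaps LOC110259145 on the opposite strand over 4060 bp, and that gene had at most 2 reads in a library.

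The libraries held 14369781 to 19309724 counted reads, and the values below are CPM (counts scaled to an equal library total) after TMM scaling. All 12 libraries entered a single quasi-likelihood model of edgeR, in which each group had its own mean, with 8 residual degrees of freedom and a biological coefficient of variation of 0.269. A gene passed when its Benjamini-Hochberg adjusted p, taken over 15351 genes, was under 0.05. A few libraries stood apart. H − N replicate 3 and H + N replicate 3 had the highest FKBP4 and also the highest sums of 7 stromal markers, 60851 and 58682 CPM against 25004 to 46324 CPM in the other libraries. L − N replicates 2 and 3 had 1476 and 1440 CPM over 6 immune cell markers, against 341 to 661 CPM in the other libraries, L − N replicate 1 included (485 CPM). The 7 smooth muscle markers summed to 5407 CPM in L − N replicate 1, to 1726 and 2137 CPM in L − N replicates 2 and 3, and to 889 to 1693 CPM in the other groups. Epithelial, stromal and endothelial markers were all present, as the label of endometrium implies. Of the 5 trophoblast markers in the table, CYP19A1 was at 0 reads in every library, CYP17A1, GCM1 and HAND1 had at most 4 reads in a library, and PTGS2, which other cells also express, averaged 17.4 CPM. In such bulk tissue, fewer cells of a type and less RNA per cell cannot be told apart.

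ESR1 was lowest in the control group and higher in each of the other groups. Its level was 522.6, 417.1 and 409.8 CPM in L − N, and 770.0, 855.1 and 1002.7 CPM in L + N. In H − N it was 938.6, 926.4 and 566.5 CPM, and in H + N 1059.8, 865.7 and 1281.2 CPM. All 9 libraries of the other groups lay above all 3 of L − N, with H − N replicate 3 the closest to them. The group means were 450 ± 63.1, 876 ± 118, 811 ± 211 and 1069 ± 208 CPM (SD, n = 3 each).

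Relative to L − N, ESR1 rose 1.95-fold in L + N, with a log2 fold change of 0.96 (SE 0.22, edgeR adjusted p = 0.0217). It rose 1.80-fold in H − N (log2 fold change 0.85, SE 0.22, edgeR adjusted p = 0.0473) and 2.38-fold in H + N (1.25, SE 0.22, edgeR adjusted p = 0.0161). These 3 comparisons share the L − N libraries. ESR1 was 1 of 2 members that passed for L + N against L − N, where 9.6% of all genes tested passed and 5.97% with a higher level. For H − N against L − N it was also 1 of 2 (backgrounds 5.27% and 1.56% higher), and for H + N against L − N 1 of 3 (7.97% and 4.31% higher). Full separation of the libraries upward, as ESR1 showed in all 3, was seen in 18%, 12.8% and 15.2% of all genes.

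Adding NCG to the high-fiber diet gave ESR1 a log2 fold change of 0.40 (95% interval −0.07 to 0.87, edgeR adjusted p = 0.622), and adding fiber to the NCG diet gave 0.29 (−0.18 to 0.76, edgeR adjusted p = 0.916). Neither passed, and the intervals leave room for changes in ESR1 of up to 0.87 and 0.76 on the log2 scale. Averaged over both diets, the effect of NCG on ESR1 was 0.68 (SE 0.15, edgeR adjusted p = 0.0233), where 2 members passed, 1 higher, against a background of 7.27% (5.67% higher, 1.6% lower). The effect of fiber averaged over NCG was 0.57 (SE 0.15, edgeR adjusted p = 0.0999). The interaction, that is how far the NCG effect under high fiber exceeded that under low fiber, was −0.56 for ESR1 (95% interval −1.23 to 0.11, edgeR adjusted p = 0.471).

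When single libraries were left out, the log2 fold change of ESR1 kept a range of 0.87 to 1.08 for L + N, 0.73 to 1.05 for H − N and 1.10 to 1.37 for H + N against L − N. The call held in 8, 3 and 10 of the 12 such fits, and the H − N call also ended with upper-quartile factors. In fits of both compared groups alone, the H − N and H + N calls of ESR1 ended, and 3 and 111 of all genes passed there. The fits without L − N replicate 3 lost all 3 calls, with adjusted p of edgeR of 0.0936, 0.174 and 0.0801. Without that library 207, 6 and 4 of all genes passed in these comparisons, against 1474, 809 and 1223 with all libraries. The immune marker sums given above were high in L − N replicates 2 and 3, and L − N replicate 1, with an immune sum like those of the other groups, had less ESR1 than each of their 9 libraries. The smooth muscle sum of L − N replicate 1 was the highest of all libraries, at 5407 CPM. The part of the immune and smooth muscle markers in the ESR1 difference was not tested.

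**Figure D2:**
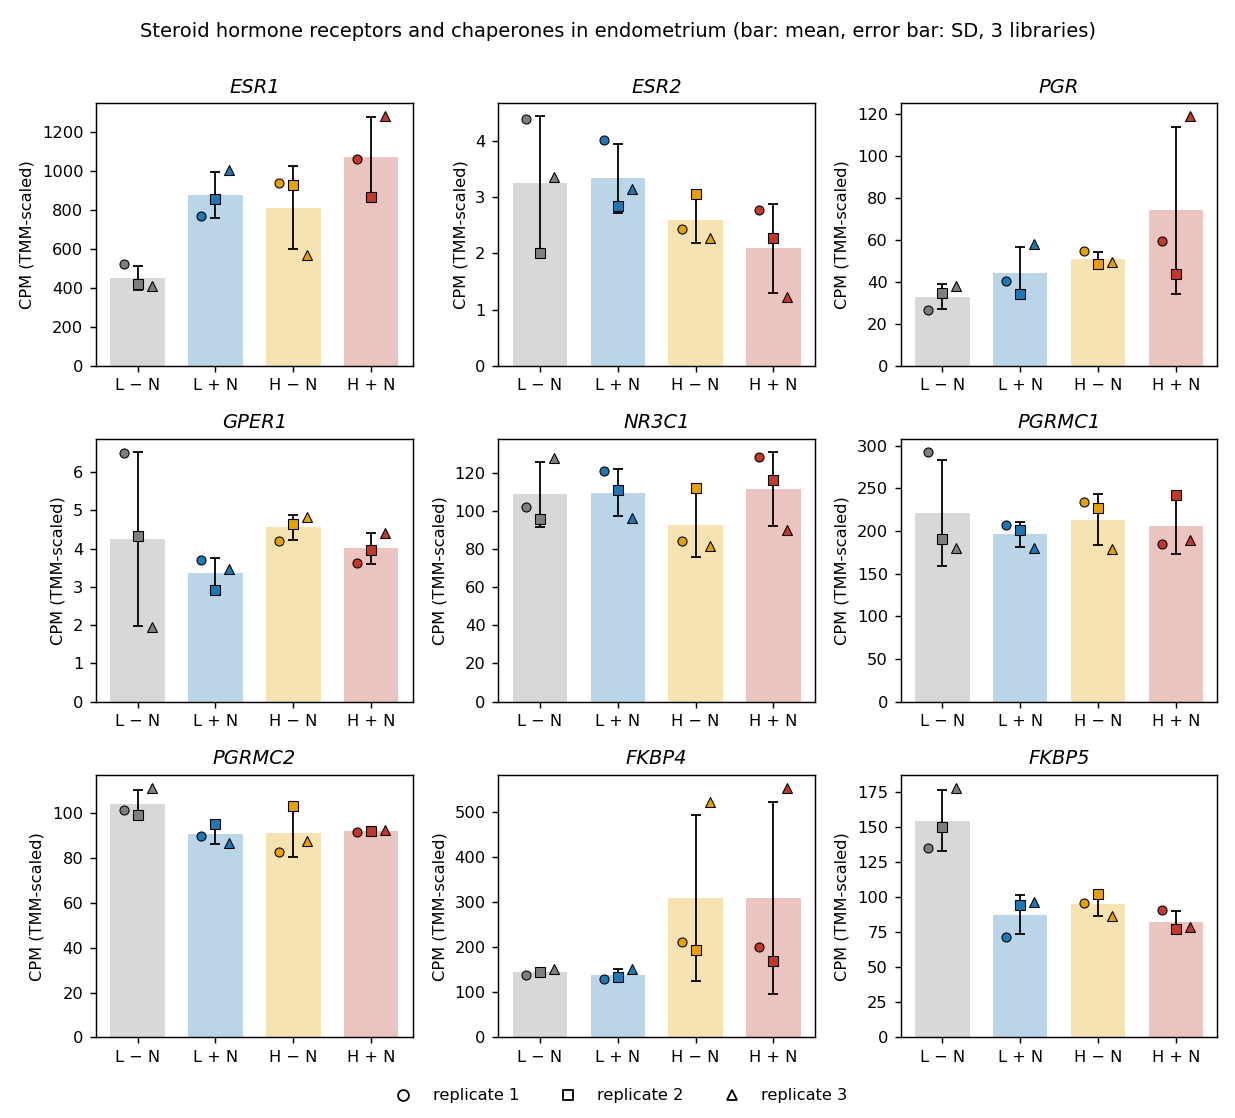
CPM of the 9 members in each library by group, with bars for the mean and error bars for the SD of 3 libraries, and marker shapes for the replicate number. ESR1 is lowest and FKBP5 highest in all 3 L − N libraries, while the FKBP4 means of both high-fiber groups are drawn up by replicate 3.

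ESR2, which binds the same hormone as ESR1 and often opposes it, was rare, with 20 to 83 reads per library. Its level was 4.39, 2.01 and 3.36 CPM in L − N, 4.03, 2.85 and 3.14 CPM in L + N, 2.44, 3.05 and 2.28 CPM in H − N, and 2.77, 2.28 and 1.23 CPM in H + N. The groups overlapped except that all 3 H + N libraries lay below all 3 of L + N, a separation that 11% of all genes showed in either direction and 5.09% downward. The log2 fold change of ESR2 was −0.68 for H + N against L + N (95% interval −1.501 to 0.15, edgeR adjusted p = 0.910) and −0.64 for H + N against L − N (−1.46 to 0.19, edgeR adjusted p = 0.301). Averaged over NCG, fiber gave ESR2 −0.50 (95% interval −1.09 to 0.08, edgeR adjusted p = 0.324), an interval that at this depth holds both a large decrease and no change.

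GPER1, a G protein-coupled receptor that carries rapid estrogen signals, had 29 to 102 reads per library. It was at 6.49, 4.33 and 1.95 CPM in L − N, at 3.69, 2.91 and 3.47 CPM in L + N, at 4.2, 4.65 and 4.83 CPM in H − N, and at 3.63, 3.97 and 4.41 CPM in H + N. The control libraries spanned the values of all other groups. The log2 fold change of GPER1 from L − N to H + N was −0.09 (95% interval −0.88 to 0.70, edgeR adjusted p = 0.9004).

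PGR, the nuclear receptor that carries the signal of progesterone through pregnancy, had higher values on the high-fiber diets, and its largest value came from 1 library. It was at 26.4, 34.5 and 37.9 CPM in L − N and at 40.4, 34.2 and 57.9 CPM in L + N. In H − N it was at 54.9, 48.7 and 49.6 CPM, and in H + N at 59.3, 43.6 and 119.1 CPM. All 6 high-fiber libraries lay above all 3 of L − N, while L + N replicate 3 lay among the high-fiber libraries. The means were 32.9 ± 5.92, 44.2 ± 12.3, 51.0 ± 3.34 and 74.0 ± 39.8 CPM (SD, n = 3 each, in the same order of groups).

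For H + N against L − N, PGR rose 2.25-fold (log2 fold change 1.17, SE 0.32, edgeR adjusted p = 0.04997), and it was the last of the 1223 genes that passed in this comparison. Without H + N replicate 3 its log2 fold change was 0.64 (edgeR adjusted p = 0.133), and the call held in 1 of 12 fits with a single library removed. RLE factors, no filter on low counts and a fit of both groups alone also ended it, and DESeq2 kept it. H − N against L − N gave PGR a log2 fold change of 0.63 (95% interval −0.07 to 1.34, edgeR adjusted p = 0.254) and L + N against L − N 0.42 (−0.28 to 1.13, edgeR adjusted p = 0.422). H + N against L + N gave 0.74 (95% interval 0.04 to 1.45, edgeR adjusted p = 0.910) and H + N against H − N 0.53 (−0.17 to 1.24, edgeR adjusted p = 0.654). Averaged over the other factor, PGR had 0.69 for fiber (SE 0.23, edgeR adjusted p = 0.144) and 0.48 for NCG (SE 0.23, edgeR adjusted p = 0.228), and the interaction was 0.11 (95% interval −0.88 to 1.10).

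PGRMC1 and PGRMC2 are heme-binding proteins of internal membranes through which rapid progesterone responses have been described. PGRMC1 was at 293.0, 190.7 and 179.7 CPM in L − N, at 207.4, 201.3 and 179.5 CPM in L + N, at 233.7, 226.8 and 179.2 CPM in H − N, and at 184.4, 242.5 and 189.9 CPM in H + N. All 4 groups overlapped, and L − N replicate 1 had the highest value. The log2 fold change of PGRMC1 for H + N against L − N was −0.10 (95% interval −0.53 to 0.32, edgeR adjusted p = 0.766), so a change of more than 0.53 in either direction lay outside the interval.

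PGRMC2 had the smallest spread of the members, a coefficient of variation of 8.58% of its mean CPM over the 12 libraries. It was at 101.5, 99.3 and 111.4 CPM in L − N, at 90.0, 95.1 and 86.7 CPM in L + N, at 82.6, 103.1 and 87.5 CPM in H − N, and at 91.5, 92.0 and 92.4 CPM in H + N. All 3 libraries of L + N and all 3 of H + N lay below the control libraries, whereas 1 of H − N lay among them. The fitted log2 fold changes of PGRMC2 against L − N were −0.20 (95% interval −0.43 to 0.03, edgeR adjusted p = 0.237) in L + N, −0.19 (−0.42 to 0.03, edgeR adjusted p = 0.279) in H − N and −0.18 (−0.41 to 0.05, edgeR adjusted p = 0.291) in H + N. None passed. Of all genes, 35.3% separated fully between L + N and L − N, 25.4% between H − N and L − N, and 28% between H + N and L − N, and the members that did so numbered 3, 4 and 5 of 9. Between H + N and H − N 0 members did, against 13% of all genes (7.82% upward, 5.13% downward).

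NR3C1, the receptor of cortisol, was at 102.1, 95.9 and 127.8 CPM in L − N, at 121.1, 111.0 and 96.4 CPM in L + N, at 84.4, 111.7 and 81.5 CPM in H − N, and at 128.0, 116.4 and 89.8 CPM in H + N. The groups overlapped in every comparison. The log2 fold change of NR3C1 from L − N to H + N was 0.04 (95% interval −0.35 to 0.42, edgeR adjusted p = 0.916).

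FKBP5, the co-chaperone that lowers the hormone affinity of NR3C1 and PGR, was highest in the control group and lower in each of the other groups. It was at 135.2, 149.6 and 178.1 CPM in L − N, at 71.7, 94.6 and 96.4 CPM in L + N, at 95.9, 102.4 and 86.4 CPM in H − N, and at 91.0, 77.5 and 79.0 CPM in H + N. All 9 libraries of the other groups, which reached 102.4 CPM at most, lay below all 3 of L − N. The means were 154 ± 21.8, 87.5 ± 13.8, 94.9 ± 8.08 and 82.5 ± 7.44 CPM (SD, n = 3 each).

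Relative to L − N, FKBP5 fell by 43.3% in L + N (log2 fold change −0.82, SE 0.15, edgeR adjusted p = 0.0108). The H − N libraries were lower than the control as well (−0.70, SE 0.15, edgeR adjusted p = 0.0279), and in H + N the level fell by 46.5% (−0.90, SE 0.15, edgeR adjusted p = 0.0155). Full separation downward, as FKBP5 showed in all 3, was seen in 17.2%, 12.7% and 12.7% of all genes. Among the other groups FKBP5 did not pass. H + N against H − N gave −0.20 (95% interval −0.52 to 0.12, edgeR adjusted p = 0.718) and H + N against L + N −0.09 (−0.40 to 0.23, edgeR adjusted p = 0.965). The averaged effect of NCG was −0.51 (SE 0.10, edgeR adjusted p = 0.0160) and that of fiber −0.39 (SE 0.10, edgeR adjusted p = 0.0971).

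The interaction of fiber and NCG was 0.62 for FKBP5 (95% interval 0.17 to 1.07, unadjusted p = 0.0118 in the edgeR fit), and it did not pass over all genes (edgeR adjusted p = 0.294). FKBP5 was the 1 member with an unadjusted p under 0.05 in the interaction, against 12.8% of all genes. The FKBP5 calls against L − N held in 11 (L + N), 7 (H − N) and 10 (H + N) of the 12 fits without 1 library, and the NCG call in all 12. Without L − N replicate 3, none of those 3 comparisons kept its call (adjusted p of 0.0535 to 0.116). In that fit 207, 6 and 4 of all genes passed in L + N, H − N and H + N. The H − N call ended without L − N replicate 3 (−0.59, edgeR adjusted p = 0.116) or L − N replicate 2, in each fit without 1 of the H − N libraries, and in a fit of both groups alone. L − N replicate 1, with the low immune marker sum and the highest smooth muscle sum (5407 CPM), had more FKBP5 than any library of the other groups. The part of the immune, smooth muscle, stromal and endothelial markers in the FKBP5 difference was not tested.

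**Figure D3:**
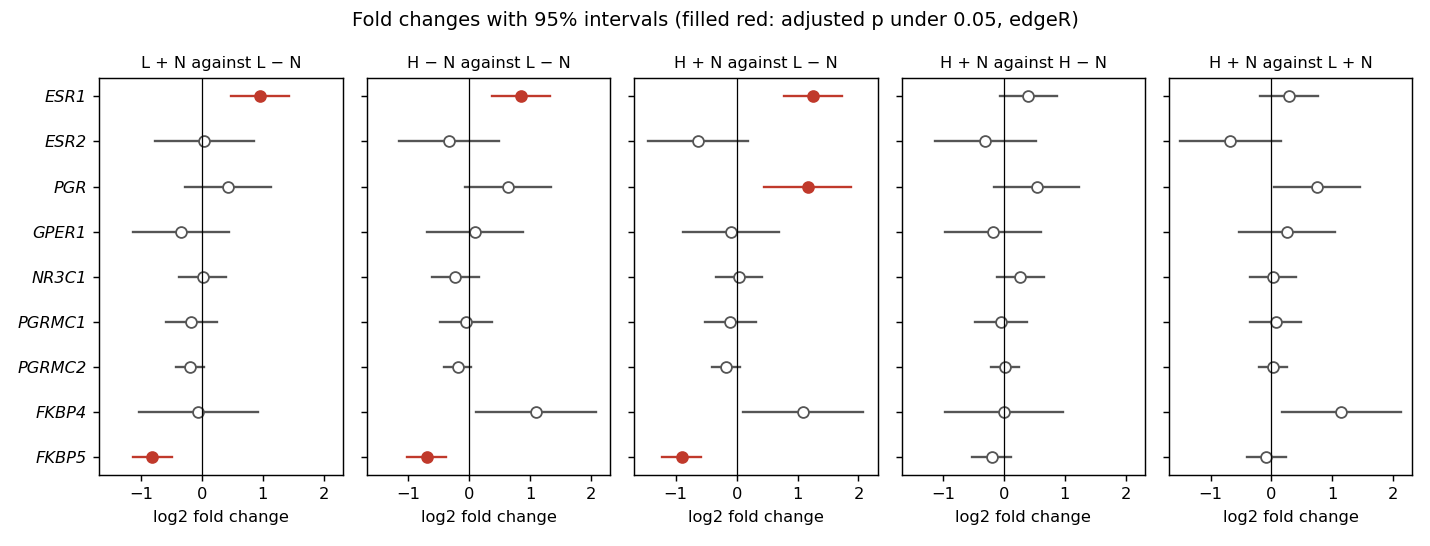
Log2 fold change of each member in the 5 comparisons of groups, with 95% intervals, and filled red points where the adjusted p of edgeR is under 0.05. ESR1 and FKBP5 pass in the 3 comparisons with L − N, PGR passes for H + N against L − N at an adjusted p of 0.04997, and no member passes between the other groups.

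FKBP4, the co-chaperone that favors hormone binding, had its higher values on both high-fiber diets, with a large spread there. It was at 138.2, 144.9 and 151.7 CPM in L − N and at 129.7, 135.1 and 152.7 CPM in L + N. In H − N it was at 210.9, 194.5 and 522.7 CPM, and in H + N at 201.6, 170.4 and 554.6 CPM. All 6 high-fiber libraries lay above all 6 low-fiber libraries, which 0.886% of all genes did in either direction and 0.482% upward, and FKBP4 was the 1 member to do so. Its means were 145 ± 6.72, 139 ± 12.02, 309 ± 185 and 309 ± 213 CPM (SD, n = 3 each).

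Averaged over NCG, the log2 fold change of FKBP4 with fiber was 1.12 (SE 0.32), and it did not pass in edgeR (adjusted p = 0.111). It passed in DESeq2 (adjusted p = 0.0115). For this averaged effect of fiber, 0 members passed in edgeR where 0.0521% of all genes did (0.00651% higher, 0.0456% lower), 4 had an unadjusted p under 0.05 against a background of 19.5%, and DESeq2 passed 3, ESR1, FKBP4 and FKBP5. DESeq2 passed 1123 of all genes for fiber, where edgeR passed 8. Without H − N replicate 3 and H + N replicate 3, which had 522.7 and 554.6 CPM, the effect of fiber on FKBP4 was 0.45 (edgeR adjusted p = 0.112). The pairwise values of FKBP4 were 1.09 (SE 0.45, edgeR adjusted p = 0.163) for H − N and 1.09 (SE 0.45, edgeR adjusted p = 0.142) for H + N against L − N, and 1.15 (SE 0.45, edgeR adjusted p = 0.910) for H + N against L + N. NCG gave FKBP4 an averaged log2 fold change of −0.03 (95% interval −0.72 to 0.66, edgeR adjusted p = 0.964). The sum of the 7 stromal markers was highest in the same 2 libraries as FKBP4. Its largest terms were the collagens COL3A1, COL1A1 and COL1A2, with means of 16865, 8329 and 7159 CPM. The sum ran from 32965 to 60851 CPM in the high-fiber libraries and from 25004 to 46324 CPM in the low-fiber libraries. Taken gene by gene, which gives the collagens no more weight, the 7 markers had a median log2 fold change of 0.03 for fiber averaged over NCG, and 0 passed. Their part in the FKBP4 values was not tested.

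No member passed in edgeR for H + N against H − N or for H + N against L + N, where 0% of all genes did, and DESeq2 passed 0 members in both, with 47 and 2 of all genes. At an unadjusted p under 0.05, 0 members stood in the first (background 8.67%) and 2 in the second, PGR and FKBP4 (background 4.68%). The interaction likewise had 0 members past the test in edgeR and in DESeq2, against 0% of all genes in edgeR and 302 genes in DESeq2. With the further threshold of the study on size, an absolute log2 fold change over 1, ESR1 and PGR passed for H + N against L − N, where 3.58% of all genes did, and no member passed in the other 7 comparisons. The backgrounds of these were 3.99% for L + N and 2.91% for H − N against L − N, 1.8% for NCG and 0.0261% for fiber. At an unadjusted p under 0.05, 3 members stood in H − N against L − N (background 24.4%), 2 in L + N (27.8%) and 4 in H + N (27.5%).

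The balance of both immunophilins was compared as the ratio of their FPKM, a level per length. FKBP5 over FKBP4 was 0.307, 0.324 and 0.369 in L − N and 0.173, 0.2196 and 0.198 in L + N. It was 0.143, 0.165 and 0.052 in H − N and 0.142, 0.143 and 0.045 in H + N. Every high-fiber library had a lower ratio than every low-fiber library, and within the low-fiber diet every L + N library had a lower ratio than every L − N library. Fiber lowered the log2 ratio of FKBP5 to FKBP4 by 1.33, with p = 0.005 in a two-sided exact permutation test within NCG levels, the smallest value that its 400 arrangements can give (adjusted p = 0.04 over 8 tests of ratios). Without both libraries of high FKBP4 the difference was −0.79. Its exact permutation p of 0.01 is the smallest that the 100 arrangements left can give, so that a single ratio at this p cannot pass over 8 tests (adjusted p = 0.08).

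NCG gave the FKBP5 to FKBP4 ratio a log2 difference of −0.45 (exact permutation, adjusted p = 0.57). For NR3C1 over PGR, the log2 difference with fiber was −0.76 (exact permutation p = 0.04, adjusted p = 0.16). Its group means on the low-fiber diet were 2.02 ± 0.331 without and 1.59 ± 0.513 with NCG, and on the high-fiber diet 1.1 ± 0.248 without and 1.13 ± 0.6 with NCG (SD, n = 3 each). The ratios of ESR1 to PGR and of PGRMC1 to PGRMC2 did not pass for either factor, with adjusted p of 0.57 to 0.98 in the exact permutation test.

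Across the 12 libraries, 36 pairs of members were compared by the correlation of log2 CPM. No pair passed by Pearson's r after adjustment over the pairs. ESR1 and PGR, which regulate each other in the uterus, had r = 0.72 (permutation p = 0.0049, adjusted p = 0.0621) and rho = 0.83 (permutation p = 0.0013, adjusted p = 0.0391), and r = 0.77 without the 2 libraries farthest from the median of ESR1. The correlation of the ESR1 and PGR deviations from the group means was 0.44. PGR and FKBP4 had r = 0.73 (permutation p = 0.0069, adjusted p = 0.0621) and rho = 0.81 (permutation p = 0.0022, adjusted p = 0.0391). Pearson's r fell to 0.44 without the 2 libraries farthest from the median of PGR, H + N replicate 3 and L − N replicate 1. The size of r thus depended on those libraries. For the PGR and FKBP4 deviations from the group means, with all 12 libraries kept, the correlation was 0.66. The L − N libraries stood apart in FKBP5, and over the other 9 libraries ESR1 and FKBP5 had r = 0.12 (exact permutation p = 0.755) and rho = 0.28 (exact permutation p = 0.463), with r = 0.66 without the 2 of these libraries farthest from the median of ESR1.

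The genes whose log2 CPM followed a member most closely over the 12 libraries were named by the highest r among 11910 or 11911 genes with at least 5 CPM on average, as a description. ESR1 was followed by CCDC77 (r = 0.95), the hedgehog transcription factor GLI2 (r = 0.95) and the matrix protease ADAMTS9 (r = 0.94). PGR was followed by FKBP10, a collagen chaperone (r = 0.94), the matrix protein SMOC2 (r = 0.94) and STIP1, the co-chaperone that links HSP70 with HSP90 (r = 0.935). FKBP4 was followed by UBFD1 (r = 0.98), OAF (r = 0.97) and PPAN, a factor of ribosome assembly (r = 0.96), and FKBP5 by VPS18, WWTR1 and KDSR (r = 0.93 to 0.94). The highest r of the other members ran from 0.83 for GPER1 with PLEC to 0.92 for ESR2 with TSHZ2, with 0.89 for NR3C1 with NAP1L5, 0.90 for PGRMC1 with EDAR and 0.91 for PGRMC2 with SYTL2.

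Of the steroid receptors and relatives beside the members, NENF, a secreted relative of the PGRMC proteins, fell in L + N against L − N (log2 fold change −0.55, SE 0.13, edgeR adjusted p = 0.0222). It also fell with NCG averaged over fiber (−0.42, SE 0.09, edgeR adjusted p = 0.0173). These NENF calls held in 7 and 11 of the 12 fits without 1 library. The mineralocorticoid receptor NR3C2 and the tested membrane progestin receptors of the PAQR family did not pass in any comparison.

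The HSP90 chaperone cycle, which loads and releases the receptors, had 17 tested genes of 18 listed. PPID, an immunophilin that binds HSP90 at the same place as FKBP4 and FKBP5, was at 37.8, 37.2 and 38.8 CPM in L − N and at 64.5, 51.0 and 83.4 CPM in H + N. It rose in H + N against L − N (log2 fold change 0.80, SE 0.16, edgeR adjusted p = 0.0213). BAG1, a nucleotide exchange factor of HSP70, fell with NCG averaged over fiber (−0.37, SE 0.09, edgeR adjusted p = 0.0309). The PPID call held in 9 and the BAG1 call in 6 of the 12 fits without 1 library, and the BAG1 call also ended without both libraries of high FKBP4. None of the other 15 passed in any comparison, and the median log2 fold change of the list was 0.09 for H + N against L − N and 0.16 for fiber, against 0.02 and 0.02 over all genes.

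HSP90AA1 and HSP90AB1, the cytosolic forms of HSP90, averaged 1497 and 1546 CPM over the libraries, and neither passed. In H + N replicate 3, the library with the highest PGR and FKBP4, HSPA8, the constitutive HSP70, was at 2017.8 CPM against 818.1 to 1468.7 CPM in the other libraries. STIP1 was at 236.7 CPM there against 124.7 to 173.3 CPM in the others, and PPID reached its highest value of 83.4 CPM in the same library. HSP90AA1, at 1751.7 CPM, was also highest in it, though close to 1697.8 CPM in H + N replicate 2. HSP90AB1 did not follow, with at most 1540.0 CPM in the H + N libraries and up to 2318.5 CPM in H − N.

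**Figure D4:**
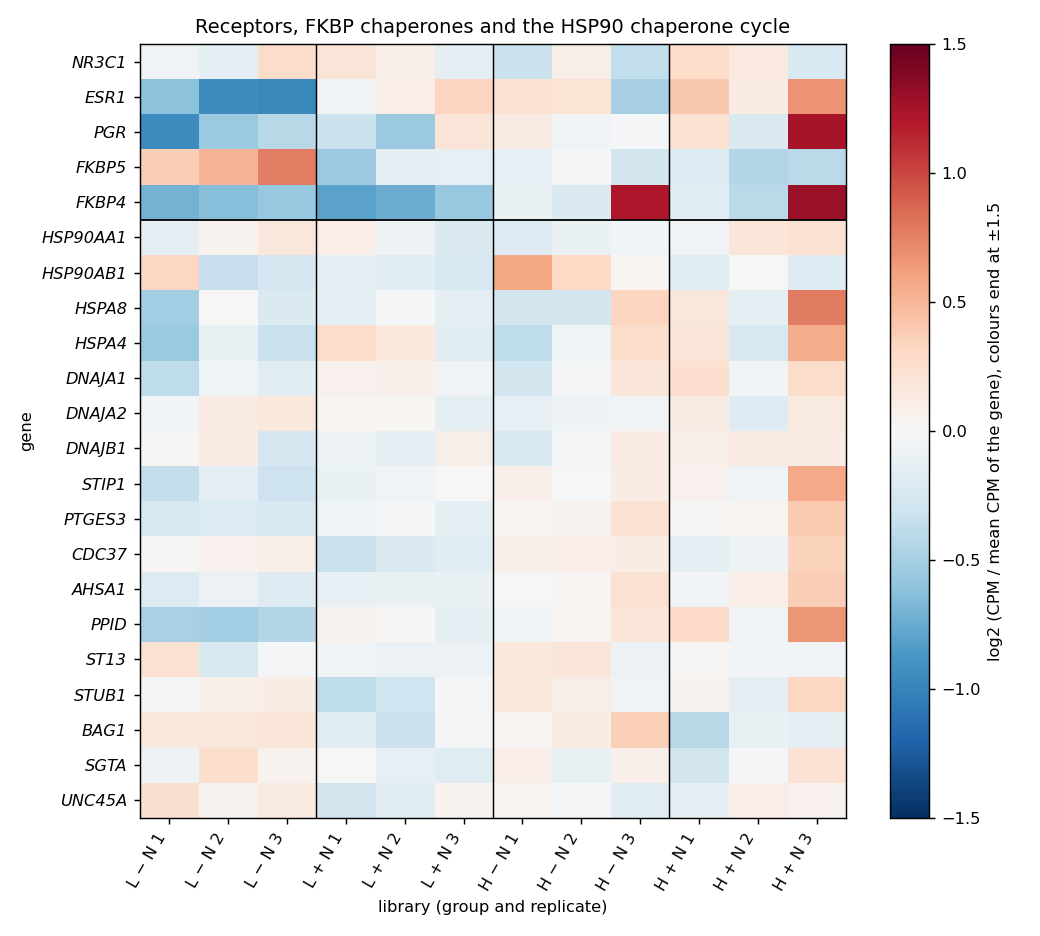
Log2 of the CPM of each gene over its mean across the 12 libraries, for 5 members above the line and 17 genes of the HSP90 chaperone cycle below it, with libraries in columns by group. FKBP4 is high in H − N replicate 3 and H + N replicate 3, and PGR, HSPA8, STIP1 and PPID share their highest library, H + N replicate 3, with FKBP4.

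The transcriptional partners of the receptors were measured with 11 tested uterine transcription factors. HOXA10, a homeobox factor of uterine receptivity that progesterone induces, was at 76.1, 100.2 and 94.1 CPM in L − N, at 230.3, 224.7 and 362.9 CPM in L + N, and between 141.4 and 310.7 CPM in the high-fiber groups. It rose in L + N (1.60, SE 0.26, edgeR adjusted p = 0.0082) and in H + N (1.52, SE 0.26, edgeR adjusted p = 0.0158) against L − N, and with NCG averaged over fiber (1.08, SE 0.18, edgeR adjusted p = 0.0084). FOXO1, a partner of PGR in decidual cells, fell against L − N in L + N (−0.66, SE 0.10, edgeR adjusted p = 0.0082), in H − N (−0.57, SE 0.10, edgeR adjusted p = 0.0194) and in H + N (−0.49, SE 0.10, edgeR adjusted p = 0.0232). GATA2, which is needed for PGR expression in the mouse uterus, rose in H − N against L − N (0.78, SE 0.20, edgeR adjusted p = 0.0485), a call that held in 2 of the 12 fits without 1 library.

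Of 14 estrogen-regulated genes, 1 rose and 1 fell in both high-fiber groups relative to L − N, and none passed in the other comparisons. Of all genes, 1.56% passed higher and 3.71% lower in H − N, and 4.31% higher and 3.66% lower in H + N. PDZK1, a scaffold protein, rose with log2 fold changes of 1.51 in H − N (SE 0.29, edgeR adjusted p = 0.0241) and 1.20 in H + N (SE 0.29, edgeR adjusted p = 0.0337). Of the 12 fits without 1 library, the PDZK1 call held in 7 for H − N and 6 for H + N, and the CA12 call described next in 7 and 3. CA12, a carbonic anhydrase, fell in both, with log2 fold changes of −3.66 and −2.85 (edgeR adjusted p = 0.0299 and 0.0429). It was at 95.1 and 55.1 CPM in L − N replicates 2 and 3, the libraries with high immune marker sums, and at 7.7 CPM in L − N replicate 1, within the 1.5 to 11.8 CPM of the other groups. GREB1, a classical target of ESR1, had a log2 fold change of −0.29 for H + N against L − N and −1.26 for H + N against H − N, and passed in neither. Its mean was highest in H − N, at 83.2 ± 49.1 CPM. The means were 42.5 ± 19.4 CPM in L − N, 23.2 ± 5.84 CPM in L + N and 34.6 ± 12.1 CPM in H + N (SD, n = 3 each). The median of the list was 0.20 for H + N, 0.73 for H − N and 0.05 for L + N against L − N, beside 0.02, 0.03 and −0.02 over all genes.

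Of 17 progesterone-regulated genes, 2 rose and 2 fell in L + N, 1 rose and 3 fell in H − N, and 2 rose and 2 fell in H + N, each against L − N. Over all genes, the shares that passed higher and lower were 5.97% and 3.63% in L + N, 1.56% and 3.71% in H − N, and 4.31% and 3.66% in H + N. The median log2 fold change of the list was 0.14, −0.05 and 0.24, beside −0.02, 0.03 and 0.02 over all genes. PTCH1, the hedgehog receptor through which epithelial IHH reaches the stroma, rose in all 3, with log2 fold changes of 0.83 in L + N (SE 0.21, edgeR adjusted p = 0.0345), 1.14 in H − N (SE 0.21, edgeR adjusted p = 0.0229) and 0.81 in H + N (SE 0.21, edgeR adjusted p = 0.042). HOXA10, described above, was the other gene that rose, in L + N and H + N. The PTCH1 calls held in 8, 9 and 3 of the 12 fits without 1 library, in the order L + N, H − N, H + N. ACP5, known as uteroferrin, the iron transport protein that progesterone induces in the glands of the pig uterus, fell in all 3, with log2 fold changes of −1.44, −2.15 and −1.87 in the same order (edgeR adjusted p = 0.04, 0.0214 and 0.0234). The ACP5 calls held in 6, 7 and 8 of the 12 fits without 1 library and ended in fits of both compared groups alone.

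ACP5 was at 139.3 CPM in L − N replicate 1, against 468.8 and 440.9 CPM in L − N replicates 2 and 3, and at 63.0 to 144.6 CPM in the other groups, so that L − N replicate 1 lay within their range. ACP5 is also known from macrophages, and the immune marker sums were high in the same libraries, which was not tested further. KLF9, a transcription factor that binds PGR, fell in all 3, and BMP2, a morphogen of decidualization, fell in H − N (log2 fold change −0.94, SE 0.19, edgeR adjusted p = 0.0279). KLF9 and ZBTB16 are also in the list of glucocorticoid-regulated genes below, so the falls of KLF9 are counted in both lists. With NCG averaged over fiber, HOXA10 rose and RBP4, the carrier of retinol in uterine secretions, fell (−1.59, SE 0.43, edgeR adjusted p = 0.0488), a call that held in 2 of the 12 fits without 1 library.

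Of 16 glucocorticoid-regulated genes, 4 fell in L + N relative to the control, 3 fell in H − N, 5 fell in H + N, 4 fell with NCG averaged over fiber, and none rose in any comparison. The median log2 fold change of the list was −0.71, −0.39 and −0.61 in the 3 comparisons with L − N, beside −0.02, 0.03 and 0.02 over all genes, and 0, 4 and 4 of the 16 had a positive value. In L + N, where 3.63% of all genes tested passed with a lower level, TSC22D3, KLF9, DDIT4 and TXNIP fell. In H − N (background 3.71% lower) TSC22D3, KLF9 and DDIT4 fell, and in H + N (background 3.66% lower) these 3 with GLUL and KLF15.

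TSC22D3, the leucine zipper protein also called GILZ that glucocorticoids induce, was at 122.2, 124.7 and 136.8 CPM in L − N and at 40.2 to 80.0 CPM in the other 9 libraries. Its log2 fold changes were −0.78 for L + N, −0.77 for H − N and −1.13 for H + N (edgeR adjusted p = 0.0199, 0.0331 and 0.0136). DDIT4, an inhibitor of mTOR signaling, was at 127.1, 116.0 and 104.5 CPM in L − N and at 56.8 to 79.6 CPM in the other libraries. Its log2 fold changes were −0.79, −0.67 and −0.99 in that order (edgeR adjusted p = 0.0082, 0.0192 and 0.0136). KLF9 fell from 20.1, 32.9 and 33.7 CPM in L − N to 9.7 to 15.5 CPM in the other libraries, with log2 fold changes of −1.04, −1.21 and −1.22 (edgeR adjusted p = 0.0194, 0.0233 and 0.0182). For each of these 3 genes, as for FKBP5, all 9 libraries of the other groups lay below all 3 of L − N. Full separation downward from L − N was common, at 17.2%, 12.7% and 12.7% of all genes in L + N, H − N and H + N. The share of genes with it in all 3 at once was not computed.

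TXNIP, which binds thioredoxin, fell in L + N (log2 fold change −0.89, SE 0.20, edgeR adjusted p = 0.0217). GLUL, glutamine synthetase, fell in H + N (−0.83, SE 0.20, edgeR adjusted p = 0.0343), as did KLF15 (−1.0006, SE 0.25, edgeR adjusted p = 0.0381), a factor of amino acid catabolism. The kinase SGK1, another gene that glucocorticoids induce, did not follow, with 0.33 for H + N against L − N and a highest value of 248.1 CPM in H + N replicate 3. With NCG averaged over fiber, DDIT4 (−0.56, edgeR adjusted p = 0.0058), TSC22D3 (−0.57, edgeR adjusted p = 0.0183), KLF15 and the clock gene PER1 fell. In the 12 fits without 1 library, the DDIT4 calls held in at least 10 for each of these comparisons, but KLF15 held in 2 for H + N and 1 for NCG, and PER1 in 1. GLUL and TXNIP each held in 8. TSC22D3 held in 8 for L + N, 4 for H − N, 10 for H + N and 9 for NCG, and KLF9 in 7, 7 and 9 for the comparisons with L − N. Of the calls against L − N printed here for genes of the lists, each ended without L − N replicate 3 except those of DDIT4 in L + N and H + N and of HOXA10 and FOXO1 in L + N. Without that library, 207, 6 and 4 of all genes passed in L + N, H − N and H + N.

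Without H − N replicate 3 and H + N replicate 3, 7 genes of the list fell in L + N, 2 fell in H − N, and 3 fell in H + N. Leaving out any 1 library gave 1 to 6, 0 to 4 and 0 to 6, with 0 in H + N without H + N replicate 1 and 0 in H − N without L − N replicate 3 or H − N replicate 1. In the fits with 0, taken in that order, 1, 6 and 0 of all genes passed. TSC22D3, DDIT4, KLF9 and FKBP5 were also higher in L − N replicate 1, whose immune marker sum was like those of the other groups and whose smooth muscle sum was the highest of all libraries (5407 CPM). The part of the immune markers and of the smooth muscle markers, which were highest in L − N, was not tested. Nor was that of the stromal and endothelial markers.

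**Figure D5:**
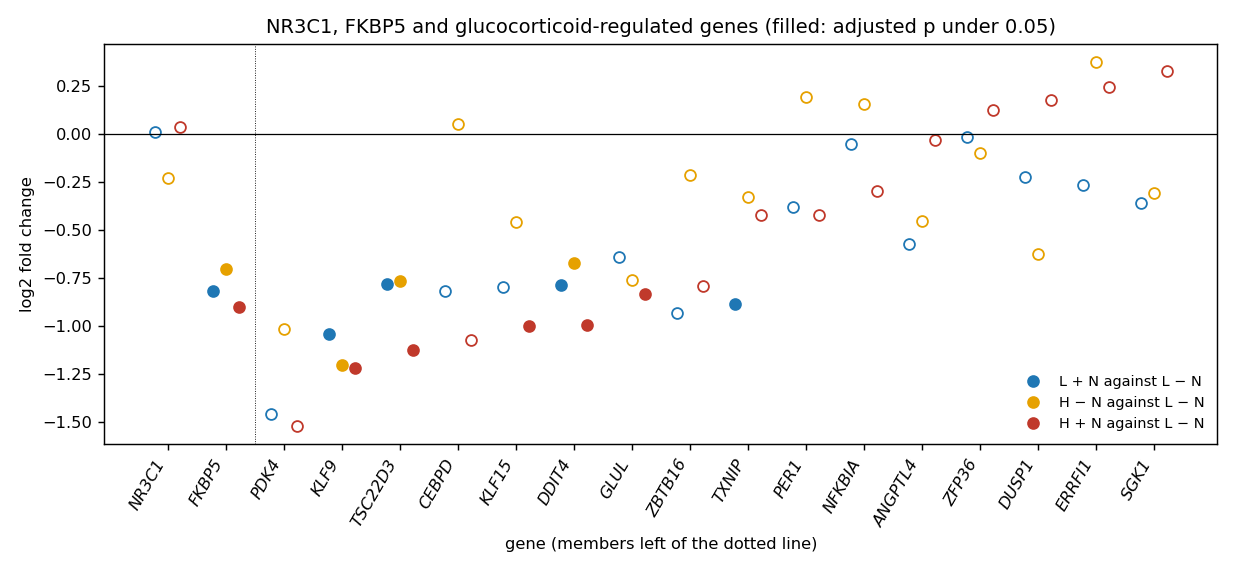
Log2 fold change against L − N of NR3C1, FKBP5 and the 16 glucocorticoid-regulated genes in L + N, H − N and H + N, with filled points where the adjusted p of edgeR is under 0.05. NR3C1 is not filled in any, FKBP5, KLF9, TSC22D3 and DDIT4 are filled and below 0 in all 3 comparisons, and no filled point lies above 0.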

How the data were processed

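The members and the gene lists were chosen with earlier results of these data known. Sample groups came from the titles. Per the labels, reads were filtered with fastp 0.22.0, and HISAT2 2.1.0 and HTSeq 0.9.1 are named for the build Sscrofa11.1. The authors deposited a table of raw read counts per gene and the FPKM made from them. The study describes strand-specific libraries, and the counting strand is not given in the sources used here. The deposited FPKM served for levels between genes and for ratios, and differ from counts over length and library total by at most 1.91e-05 percent.

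Counts were analysed in R 4.3.3 with edgeR 4.0.16 (filterByExpr, TMM, one mean per group, glmQLFTest, Benjamini-Hochberg over 15351 genes). DESeq2 1.42.0, which the study used, was an alternative, with other scalings, no filter, a replicate block and each library left out. The code was tested on simulated data. Log2 CPM for correlations used a prior count of 2, and each correlation 100000 permutations. Of each list, at most the 2 genes per direction with the smallest adjusted p per comparison were to be named. TXNIP, GLUL, PER1, BMP2, KLF15, SGK1, GREB1, HSPA8, STIP1 and HSP90, with other called genes beyond the 2, were named after their values were seen. Replicates of a group differed by a chi-square per gene of 23.3 to 99.8, well above sampling noise. The labels do not say whether libraries came from separate sows, so p-values measure the spread between these libraries, which may be technical. Some results of the gene lists are not reported here.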

Additional observations from a re-analysis of the deposited data

Results flagged for a closer look

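Each member was examined in the 6 libraries of each diet and of each NCG level, 36 sets in all, and in 5 of them 1 library lay far from the other 5. Chance gives this in about 1 in 20 sets. PGR in H + N replicate 3, at 119.1 CPM, stood apart both among the high-fiber libraries and among those with NCG, where the next values were 59.3 and 59.3 CPM. FKBP4 stood apart in H − N replicate 3 (522.7 CPM) among the libraries without NCG and in H + N replicate 3 (554.6 CPM) among those with NCG. PGRMC1 in L − N replicate 1, at 293.0 CPM, stood apart among the low-fiber libraries, whose other values were 179.5 to 207.4 CPM.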

How the results depend on the processing

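The counts of members past the test depended on single libraries. With single libraries removed, they ran from 0 to 2 for L + N, from 0 to 2 for H − N and from 0 to 3 for H + N against L − N (2, 2 and 3 in all libraries), from 1 to 2 for NCG (2) and from 0 to 2 for fiber (0). The counts of glucocorticoid-regulated genes ran from 1 to 6, 0 to 4, 0 to 6 and, for NCG, 1 to 4. Members for L + N against L − N were 0 without L − N replicate 3, and for H + N against L − N 0 without L − N replicate 3 or H + N replicate 1. Of all genes, 207 passed in the first of these fits, and 4 and 1 in the others. For H − N the members were 0 without L − N replicates 2 or 3 or H − N replicates 1 or 2. There 155, 6, 0 and 224 of all genes passed, in that order. With a log2 fold change past 1 as well, the members were 0 for L + N, H − N and NCG.

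For H − N against L − N the members were 1 with upper-quartile factors, 0 in a fit of both groups alone, 0 with the replicate block and 1 without both libraries of high FKBP4, an alternative chosen after seeing the data. Of all genes, 706, 3, 380 and 262 passed in these fits. For H + N against L − N the members were 1 in a fit of both groups alone, where 111 of all genes passed. For fiber the members were 3 with DESeq2 and 2 without L − N replicate 1, where 1123 and 1088 of all genes passed. The glucocorticoid-regulated genes were 7 for L + N and 3 for H + N without both libraries of high FKBP4. In a fit of both groups alone they were 0 for H − N and 2 for H + N. With the replicate block they were 3 for H + N and 2 for NCG, and for NCG also 2 with upper-quartile factors, 2 with no filter and 8 with DESeq2. The cause of these differences was not tested.

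The labels do not say whether libraries with the same replicate number are linked. Deviations of same-numbered libraries correlated between −0.322 and 0.283, with the highest value for replicate 3 of H − N and H + N. Libraries with different numbers were not compared in this way, so a batch shared by replicate number was not tested. The block ended the H − N calls of ESR1 (adjusted p of edgeR 0.081) and FKBP5 (0.0513), and changed no other count of members. The fit of both groups alone has no form for effects over all 4 groups and could not be fitted there.

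Signs changed in leave-one-out fits for values near 0 and for FKBP4. FKBP4 ran from −0.12 to 0.0031 for L + N against L − N, from −0.73 to 0.61 for H + N against H − N, from −0.40 to 0.27 for NCG and from −0.68 to 0.67 for the interaction. PGR ran from −0.41 to 0.36 for the interaction. For H + N against L − N, GPER1 ran from −0.43 to 0.35, NR3C1 from −0.093 to 0.17 and PGRMC1 from −0.25 to 0.15. Without both libraries of high FKBP4, PGR was −0.012 for H + N against H − N and −0.44 for the interaction, and FKBP4 −0.067 for the interaction.

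The log2 ratio of FKBP5 to FKBP4 with fiber ran from −1.49 to −1.05, losing its call without L − N replicate 3 and without each L + N library, and was −0.79 (adjusted p = 0.08) without both libraries of high FKBP4. In all of these fits every high-fiber ratio still lay below every low-fiber ratio. With 1 library removed the compared sides are of unequal size in all 12 fits, and 4 of these lost the call in the permutation test. They lost it without any overlap between the diets, and the reason was not tested. ESR1 to PGR with fiber ran from −0.18 to 0.036, and was 0.15 without both. PGRMC1 to PGRMC2 with NCG ran from −0.10 to 0.11 and NR3C1 to PGR with NCG from −0.44 to 0.015. The order of levels was the same with TMM-scaled CPM per length. Of 31 fold changes of members not printed, 17 changed sign in some of 575 recomputations, and 0 passed. Low counts limit ESR2 and GPER1.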

Other observations

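Some markers of cell populations also passed the test against L − N. Of all genes, 5.97% passed higher and 3.63% lower in L + N. The shares were 1.56% and 3.71% in H − N, and 4.31% and 3.66% in H + N. Of 7 smooth muscle markers 2 fell in L + N, and of 6 endothelial markers 2 fell in L + N and 1 in H + N. Of 6 immune cell markers 1 fell in L + N, with 3 lower for H − N and 2 lower for H + N. Of 6 markers of ciliated epithelium 1 rose in L + N and 1 in H + N, of 8 epithelial markers 1 rose in H − N, and of 7 stromal markers 1 fell in H − N.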
